A study of Mus musculus with 42 samples.

Results

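The mitochondrial genome transcripts were the genes that the deposited expression table places on chromosome MT, 37 of the 54532 genes listed. By their biotype, 13 encode proteins, 2 are ribosomal RNAs and 22 are transfer RNAs. They were followed in lung RNA from wild-type C57BL/6J mice, sequenced as 42 libraries in 14 groups of 3. Per the labels, the SD groups were held in SD cages and the Ctrl groups in home cages on each of 2 days, for 20 h from clock hour 14 to clock hour 10, SD standing for sleep deficiency per the series title. Each condition was sampled at 7 times, every 4 h from ZT0 (lights on, clock hour 8) over ZT12 (lights off) to ZT24. The titles number the libraries of a group as biological replicates without naming the animals, so p-values measure the spread between these libraries. All groups shared the strain, the wild-type genotype and the light cycle.

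The mitochondrial genome is a small circular DNA inside the organelle. Both of its strands are transcribed from promoters in the control region into long precursors, and enzymes that cut out the transfer RNAs release most of the messenger and ribosomal RNAs between them. The messenger RNAs encode core subunits of respiratory complexes I, III and IV and of ATP synthase, the ribosomal RNAs build the mitochondrial ribosome, and the transfer RNAs serve translation inside the organelle. All other subunits, and the factors that transcribe and process this RNA, are encoded in the nucleus and imported.

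Of the 37 genes, 28 lie on the + strand and 9 on the − strand of the reference, the latter being mt-Nd6 and 8 transfer RNAs. The 3 most abundant transfer RNAs are shown because all 3 come from the − strand and because mt-Te had the widest rise of a member in SD at ZT20. Sequences are from GENCODE M21 transcripts on GRCm38 (mm10), written 5′ to 3′ as the RNA reads with T for U, and capitals mark the anticodon.
mt-Tp, tRNA for proline, chrMT:15356-15422, − strand: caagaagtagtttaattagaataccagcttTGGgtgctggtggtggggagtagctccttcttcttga
mt-Te, tRNA for glutamate, chrMT:14071-14139, − strand: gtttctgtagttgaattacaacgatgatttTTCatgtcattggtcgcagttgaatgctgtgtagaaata
mt-Tc, tRNA for cysteine, chrMT:5192-5257, − strand: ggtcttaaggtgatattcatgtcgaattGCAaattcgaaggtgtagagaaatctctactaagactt
In each of the 3, 5 of 5 bases of the anticodon stem could pair, G with T counted as a pair. The marked position was chosen as the match with the most such pairs, so the pairing does not check it.

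Parts of the mitochondrial genome also exist as copies in nuclear chromosomes, and the copies bear on which reads can be assigned to which gene. Annotated copies of mt-Co1, mt-Co2, mt-Atp6, mt-Co3, mt-Nd3, mt-Nd4l and mt-Nd4 lie side by side on the − strand at chr1:24611535-24616197 (GRCm38). The opening of mt-Nd3 is shown beside its chromosome 1 copy, where capitals mark the single base that differs over 345 aligned bases (T3C, counted from 1 at the first base of the transcript). A stretch of mt-Co1 is shown beside Gm13340, a copy on chromosome 2 with 37 differences over 1545 aligned bases, of which 4 fall in the stretch (A462G, A468G, T501C and C519T) and are in capitals.
mt-Nd3, chrMT:9459-9518, + strand: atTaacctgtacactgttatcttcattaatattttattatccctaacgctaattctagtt
Gm28438, chr1:24613060-24613119, − strand: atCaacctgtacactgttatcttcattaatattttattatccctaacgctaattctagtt
mt-Co1, chrMT:5787-5846, + strand: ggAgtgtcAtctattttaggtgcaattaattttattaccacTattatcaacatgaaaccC
Gm13340, chr2:22589129-22589188, − strand: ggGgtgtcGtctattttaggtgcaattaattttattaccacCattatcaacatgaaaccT

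Expression is given in FPKM, a fragment count corrected for the length of the gene and for the library. Values fell on whole multiples of a single read, which gave back 25285525 to 29790252 reads per library. Of the 37 genes, 32 had a mean of at least 0.5 FPKM over the libraries and were tested, namely the 13 protein-coding genes, both ribosomal RNAs and 17 transfer RNAs. The other 5 were mt-Tf, listed at 0 reads in every library, mt-Tv at 0.329 FPKM, mt-Ts1 at 0.137 FPKM, and mt-Td and mt-Tk with 1 read each in all. The lung label was borne out by the 9 alveolar type 2 cell markers, of which 0 were at 0 and which summed to 24004 to 26260.5 FPKM in the Ctrl ZT4 libraries. The library labelled Ctrl ZT20 replicate 2 stood apart. Its 13 mitochondrial mRNAs had a median of -0.90 log2 against the mean of the other libraries of its group, while the medians of the other 41 libraries lay between -0.16 and 0.61. Over all tested genes its median deviation was 0.00 with an SD of 0.262, against SDs of 0.168 to 0.241 in the others. In that library mt-Nd4 deviated by -1.99 log2, mt-Nd2 by -1.56, mt-Cytb by -1.21 and mt-Co1 by -0.75, but mt-Nd6 by -0.21 and the ribosomal RNA mt-Rnr2 by -0.12. The share of chromosome MT reads at ZT20, the SD minus Ctrl counts at ZT0, ZT16, ZT20 and averaged, and the Ctrl count of ZT24 minus ZT0 are given with and without it. The Ctrl rhythm, the difference of rhythms, the interaction and the descriptions over group means are given with this library only.

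Mean levels per gene length ranged from 1.07 FPKM (mt-Ti) to 6058 FPKM (mt-Co1) among the 32 tested members. Of the complex I subunits (the NADH dehydrogenase that feeds electrons into the chain), mt-Nd1 had a mean of 3022 FPKM over the 42 libraries, mt-Nd2 1888, mt-Nd4 1569, mt-Nd6 1456 and mt-Nd5 1165. The short complex I mRNAs mt-Nd3 and mt-Nd4l were at 39.1 and 21.01 FPKM. The most abundant transcript was mt-Co1, the catalytic subunit of complex IV (cytochrome c oxidase), with a range of 3154 to 12084 FPKM over the libraries, and it held 36.8% of all reads on chromosome MT. The mRNA of cytochrome b (mt-Cytb), the mitochondrially encoded subunit of complex III, followed with 4338 FPKM and 19.5% of these reads, and mt-Nd1 held 11.4%. The other complex IV subunits were far below mt-Co1, mt-Co2 at 92.3 FPKM and mt-Co3 at 60.9 FPKM. The ATP synthase subunits mt-Atp6 and mt-Atp8 were at 92.6 and 4.66 FPKM. The ribosomal RNAs of the small (mt-Rnr1) and large (mt-Rnr2) subunit were at 325 and 421 FPKM, and together held 2.78% to 6.13% of the chromosome MT reads of a library. Transfer RNAs held 0.211% to 0.296%. The 8 transfer RNAs of the − strand had a median of 60.9 FPKM (range 0.137 to 407) and the 14 of the + strand a median of 2.40 FPKM (range 0 to 54.8). How the library kit selected RNA is not given in the sources used here, so the levels of these RNA classes beside each other are those of the libraries.

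The 5 genes in the lower range with a copy on chromosome 1 were those whose sequence is nearly all present in a nuclear transcript. Of all 100-base stretches of a gene, the share found letter for letter in a nuclear transcript was 99.5% for mt-Co2, 99.5% for mt-Atp6, 99.9% for mt-Co3, 98.5% for mt-Nd4l and 97.6% for mt-Nd3. The share was 60.8% for mt-Nd4, 30.8% for mt-Co1 and 3.19% for mt-Nd2, and 0% for mt-Nd1, mt-Nd5, mt-Nd6, mt-Cytb, both ribosomal RNAs and mt-Atp8. The exception among the low mRNAs was mt-Atp8, at 4.66 FPKM and with no such stretch in the annotated transcripts, which were all that was searched. The mt-Atp8 gene starts between mt-Co2 and mt-Atp6, which lie 230 bases apart. Their copies Gm28661 and Gm10925 lie 233 bases apart on chromosome 1. Whether that gap holds a copy of mt-Atp8 was not tested. The mt-Atp8 gene (chrMT:7766-7969) overlaps mt-Atp6 (chrMT:7927-8607). How reads that match several places or overlapping genes were counted is not given in the sources used here, so the levels of these genes are uncertain and the part of the copies in them was not tested. Strand handling is not given either, so reads of mt-Nd6 and of the − strand transfer RNAs cannot be told apart from reads of the opposite strand at the same place.

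**Figure D1:**
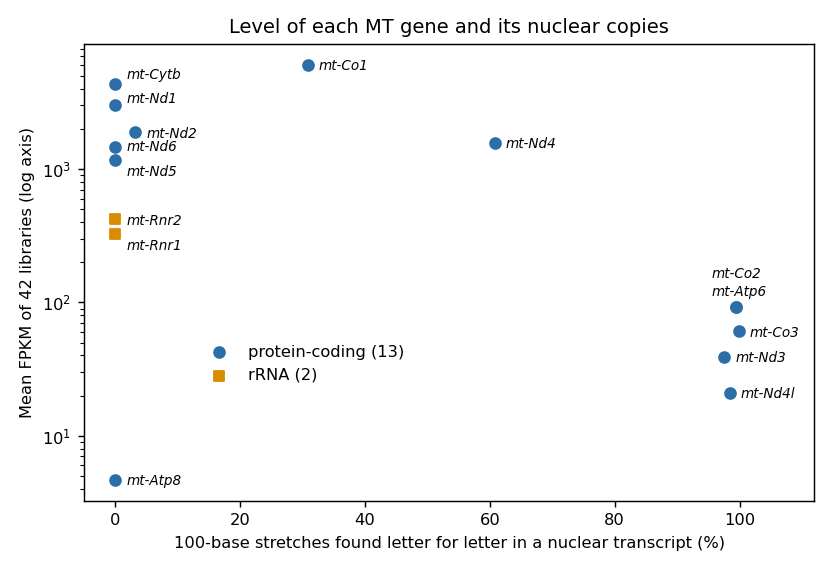
Mean FPKM of the 42 libraries (vertical, log axis) for the 13 protein-coding genes (circles) and 2 ribosomal RNAs (squares) of chromosome MT, against the percent of each gene's 100-base stretches found letter for letter in a nuclear transcript. The genes mt-Co2, mt-Atp6, mt-Co3, mt-Nd3 and mt-Nd4l lie at 97.6% or above with means of 92.6 FPKM or less, and mt-Atp8 is low with 0%.

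Reads on chromosome MT were 4.86% ± 0.126 of all reads (SD, n = 3) in Ctrl ZT4, the highest of the 14 groups, and 1.49% ± 0.0339 (SD, n = 3) in SD ZT4, the lowest. The single libraries were at 4.96%, 4.72% and 4.91% in Ctrl ZT4 and at 1.48%, 1.45% and 1.52% in SD ZT4. Home-cage lungs thus had their highest share at ZT4, and SD lungs their lowest at the same hour. Ctrl ZT8 came next with 3.91% ± 0.0855, followed by SD ZT12 with 2.998% ± 0.141 and SD ZT0 with 2.90% ± 0.0616, and the ranges of the last pair overlapped. SD ZT8 (2.53%) and Ctrl ZT0 (2.46%) overlapped in their ranges. From SD ZT20 (2.29%) through Ctrl ZT12 (2.27%), Ctrl ZT24 (2.26%), Ctrl ZT16 (2.23%) and Ctrl ZT20 (1.92% ± 0.639) to SD ZT24 (1.86%), each group overlapped with the next in order. SD ZT16 was at 1.75% ± 0.0534. The SD to Ctrl ratio of the share was 1.18 at ZT0, 0.305 at ZT4, 0.647 at ZT8, 1.32 at ZT12, 0.785 at ZT16, 1.19 at ZT20 and 0.824 at ZT24. The libraries of the conditions did not overlap at 6 of the 7 times and overlapped at ZT20. At ZT20 the Ctrl libraries were at 2.24%, 1.19% and 2.35%, and without replicate 2 their mean was 2.29%, as in SD. In a bulk sample fewer cells of a mitochondria-rich type and less mitochondrial RNA per cell cannot be told apart.

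**Figure D2:**
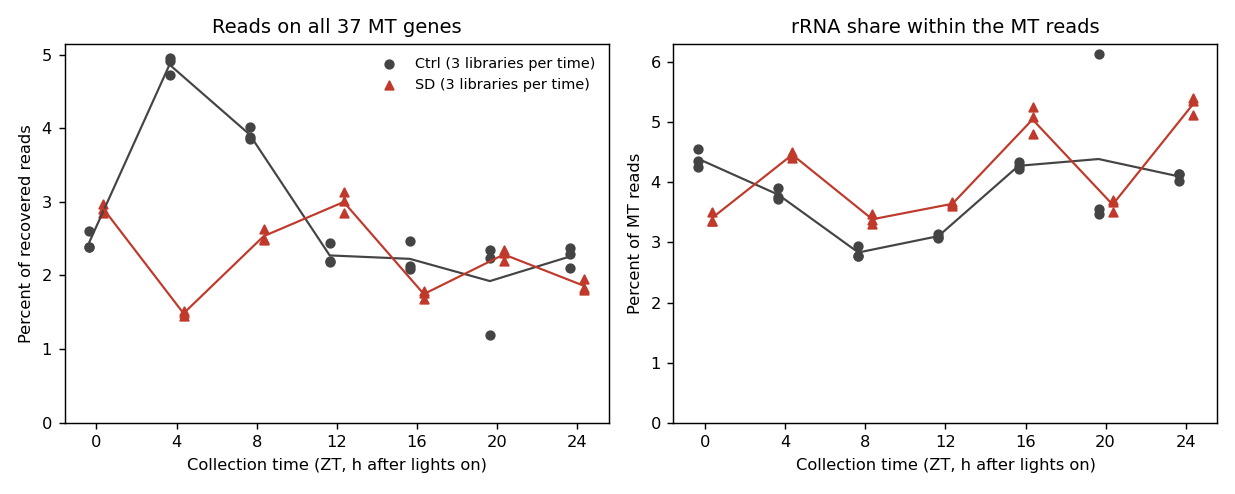
Left, percent of recovered reads on the 37 genes of chromosome MT, and right, percent of those reads on the 2 ribosomal RNAs, by collection time; each point is 1 library, lines join the means of 3 libraries, circles are Ctrl and triangles SD. Ctrl reaches 4.86% at ZT4 where SD has its lowest value of 1.49%, and 1 Ctrl library at ZT20 lies at 1.19% on the left and 6.13% on the right.

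At ZT4 nearly all mitochondrial transcripts were lower in SD than in Ctrl. By limma across 16962 genes, 28 of the 32 tested members were lower and 0 higher at a Benjamini-Hochberg adjusted p under 0.05, where 39.2% of all tested genes were called, 20.1% lower and 19.2% higher. All 13 protein-coding genes, both ribosomal RNAs and 13 of 17 transfer RNAs were among the 28. The median difference of the protein-coding genes was -1.85 on the scale of log2(FPKM + 1), against -0.01 for all tested genes. Without overlap between conditions, 30 of the 32 had all SD libraries below all Ctrl libraries, which held for 25.7% of all tested genes, and 1 had them above (24.1%).

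Among complex I subunits, mt-Nd1 had 5808, 5936 and 5790 FPKM in the Ctrl ZT4 libraries and 1848, 1880 and 1878 FPKM in SD ZT4. The gene mt-Nd5 had 2512, 2167 and 2482 FPKM in Ctrl and 499, 510 and 555 FPKM in SD. The − strand mRNA mt-Nd6 had 2676, 2875 and 2667 FPKM in Ctrl and 838, 886 and 893 FPKM in SD. In all 3 genes every SD library lay well below every Ctrl library. The log2 difference in limma was -1.64 ± 0.12 (SE, adjusted p = 3.09e-13) for mt-Nd1, -2.19 ± 0.16 (adjusted p = 4.67e-13) for mt-Nd5 and -1.65 ± 0.08 (adjusted p = 1.19e-17) for mt-Nd6. The other complex I mRNAs differed by -1.58 (mt-Nd2), -1.50 (mt-Nd4), -1.53 (mt-Nd3) and -2.48 (mt-Nd4l).

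The complex III mRNA mt-Cytb had 8364, 8156 and 8291 FPKM in Ctrl ZT4 and 2645, 2653 and 2695 FPKM in SD ZT4. For complex IV, mt-Co1 had 12084, 11420 and 11907 FPKM in Ctrl and 3309, 3198 and 3316 FPKM in SD. These were the highest Ctrl and the lowest SD groups of the series for both genes. The differences were -1.63 ± 0.15 for mt-Cytb (limma, adjusted p = 3.03e-10) and -1.85 ± 0.11 for mt-Co1 (limma, adjusted p = 3.42e-15), or 3.60-fold lower for mt-Co1. The smaller complex IV mRNAs mt-Co2 and mt-Co3 differed by -2.31 and -2.21 log2. For ATP synthase, mt-Atp6 had 188, 382 and 279 FPKM in Ctrl and 23.9, 27.9 and 35.8 FPKM in SD, with no overlap but a wide spread in Ctrl. Its difference of -3.19 ± 0.38 (limma, adjusted p = 3.27e-08) was the most negative of the 32, and mt-Atp8 differed by -2.46.

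The ribosomal RNAs fell unequally. Small-subunit mt-Rnr1 had 535, 557 and 540 FPKM in Ctrl ZT4 and 246, 246 and 242 FPKM in SD ZT4, a difference of -1.15 ± 0.06 (limma, adjusted p = 3.11e-16). Large-subunit mt-Rnr2, encoded next to it, had 856, 853 and 853 FPKM in Ctrl and 265, 267 and 273 FPKM in SD, a difference of -1.67 ± 0.06 (limma, adjusted p = 1.51e-20). The transfer RNAs mt-Tp, mt-Te and mt-Tc differed by -1.65, -1.52 and -1.52 log2. The leucine transfer RNAs mt-Tl1 and mt-Tl2 differed by -2.53 and -2.95, mt-Tw (tryptophan) by -2.82 and mt-Tn (asparagine) by -2.35. The others called were mt-Th (-2.29), mt-Ta (-2.21), mt-Tg (-1.69), mt-Ts2 (-1.62), mt-Ty (-1.50) and mt-Tt (-1.46). Values of the transfer RNAs that did not pass were -1.53 for mt-Tr, -1.50 for mt-Tq, 0.60 for mt-Tm and 0.43 for mt-Ti, all with means of 2.55 FPKM or less.

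**Figure D3:**
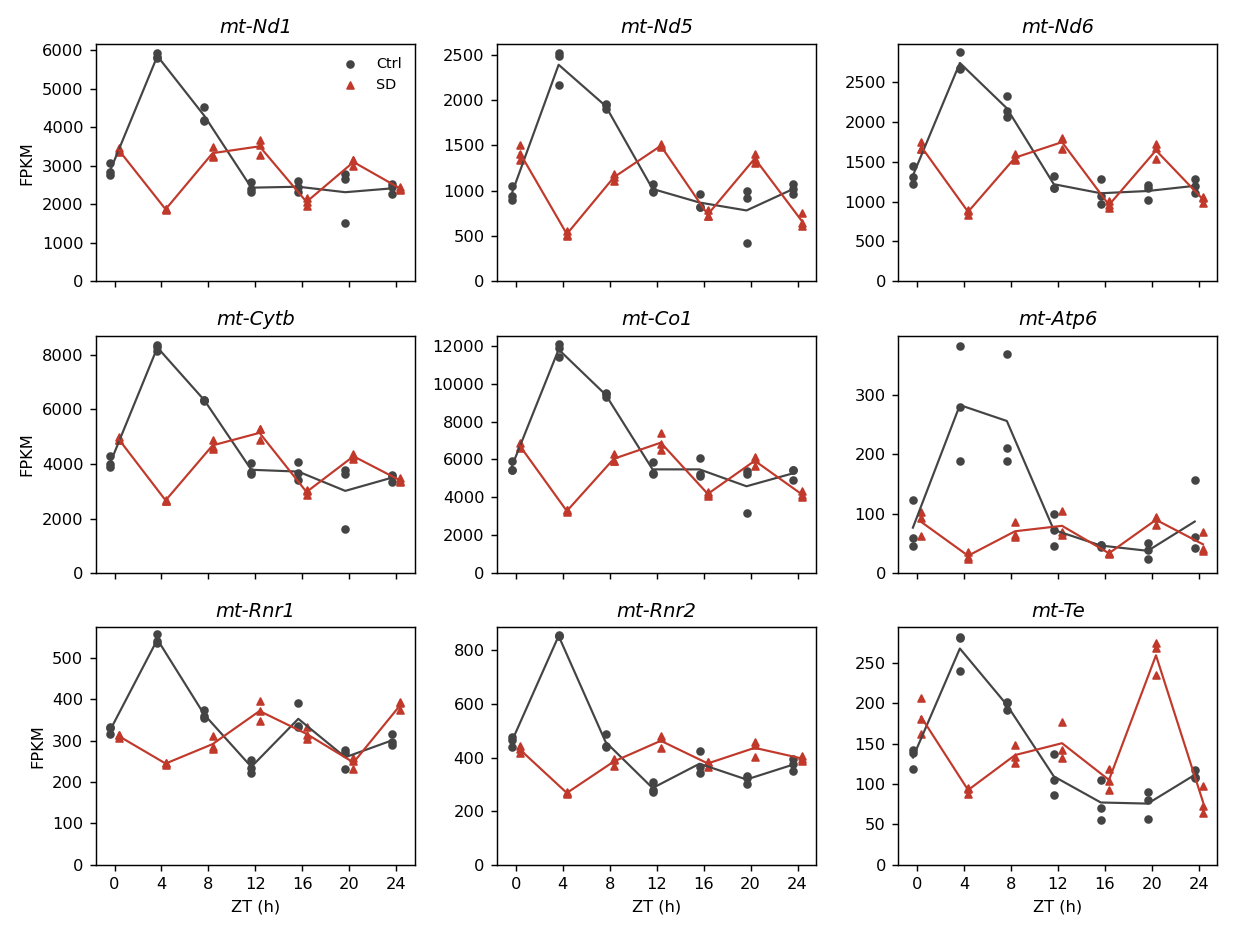
FPKM of 9 chromosome MT genes by collection time; each point is 1 library (3 per group), lines join group means, circles are Ctrl and triangles SD. In all 9 the Ctrl ZT4 libraries lie above the SD ZT4 libraries, for mt-Co1 at 11420 to 12084 against 3198 to 3316, and mt-Te has a further rise in SD at ZT20.

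After ZT4 the difference changed sign more than once. At ZT8, 16 of the 32 were lower and 0 higher, where 56% of all tested genes were called (28.9% lower, 27.1% higher), and the 16 held 9 of 13 protein-coding genes. At ZT12, 15 were higher and 0 lower, where 48.9% of all tested genes were called (24.4% in each direction). At ZT16, 5 were higher and 5 lower (background 29.1% higher, 27.1% lower and 56.1% in all). At ZT20, 16 were higher and 1 lower (background 33% higher, 28.4% lower and 61.4% in all). At ZT24, 1 was higher and 4 lower (background 24.4% higher, 22.3% lower and 46.8% in all), and at ZT0, 5 were higher and 1 lower (background 18% higher, 19.7% lower and 37.7% in all). Without SD ZT16 replicate 1 or replicate 3 the ZT16 count of calls was 6 or 5, and without SD ZT24 replicate 2 or replicate 3 the ZT24 count was 3 or 8. Outside ZT4 the share of members called in either direction was thus near or below that of all genes. Within a single direction, the share of members was larger than that of all genes for lower calls at ZT8 (16 of 32 against 28.9%). The same held for higher calls at ZT12 (15 of 32 against 24.4%) and ZT20 (16 of 32 against 33%). With all libraries, the share of members at ZT0, ZT16 and ZT24 was below that of all genes in each direction. Without Ctrl ZT20 replicate 2, described below, it was above that of all genes for higher calls at ZT0 and lower calls at ZT16. All SD libraries lay below all Ctrl libraries for 21 of the 32 members at ZT8 (32.7% of all tested genes). They lay above them for 20 at ZT12 (28.5%) and 16 at ZT20 (33.7%). At ZT0 they lay above them for 14 (22.1%) and below them for 3 (24.2%). For the 13 mRNAs the median difference was -0.48 at ZT8 and 0.52 at ZT12, then -0.25 at ZT16 and 0.61 at ZT20. It was 0.27 at ZT0 and -0.16 at ZT24.

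The course of mt-Co1 in Ctrl started at 5451, 5450 and 5925 FPKM at ZT0, and after ZT4 passed 9490, 9455 and 9310 FPKM at ZT8 to 5283, 5886 and 5253 FPKM at ZT12. It then stayed at 5116, 6061 and 5244 FPKM at ZT16, 5212, 3154 and 5380 FPKM at ZT20, and 5467, 4914 and 5437 FPKM at ZT24. In SD it had 6856, 6617 and 6676 FPKM at ZT0, 5912, 6282 and 5909 FPKM at ZT8, 6477, 7371 and 6805 FPKM at ZT12, 4052, 4193 and 4287 FPKM at ZT16, 6109, 6044 and 5637 FPKM at ZT20, and 4100, 4031 and 4355 FPKM at ZT24. Ctrl had a single broad maximum at ZT4 and ZT8, while SD had its lowest values at ZT4, ZT16 and ZT24 and higher ones at ZT0, ZT8, ZT12 and ZT20. The differences in limma were -0.64 ± 0.11 at ZT8 (adjusted p = 6.02e-06), 0.33 ± 0.11 at ZT12 (adjusted p = 0.0114), -0.39 ± 0.11 at ZT16 (adjusted p = 0.00282), 0.41 ± 0.11 at ZT20 (adjusted p = 0.00142) and -0.34 ± 0.11 at ZT24 (adjusted p = 0.00989). At ZT0 it was 0.26 ± 0.11 and did not pass (limma, adjusted p = 0.0561), although all SD libraries lay above all Ctrl libraries.

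Among the complex I subunits, mt-Nd3, mt-Nd5 and mt-Nd6 had a called difference at ZT0, with 0.69 ± 0.20, 0.56 ± 0.16 and 0.35 ± 0.08. In Ctrl ZT0 mt-Nd5 had 900, 940 and 1051 FPKM, and in SD ZT0 1499, 1342 and 1405 FPKM, without overlap. At ZT8 the call was lower for mt-Nd5 (-0.75), mt-Nd6 (-0.48), mt-Nd1 (-0.37) and mt-Nd4l (-1.25). At ZT12 the call was higher for mt-Nd2 (0.72), mt-Nd1 (0.53), mt-Nd5 (0.55), mt-Nd6 (0.52), mt-Nd3 (0.87) and mt-Nd4l (1.16). At ZT24 mt-Nd5 had 1073, 966 and 1019 FPKM in Ctrl and 640, 610 and 750 FPKM in SD, a difference of -0.62 ± 0.16 (limma, adjusted p = 0.00159), and mt-Nd6 differed by -0.22. The complex III mRNA mt-Cytb was called at ZT8 (-0.44), ZT12 (0.44) and ZT20 (0.61) besides ZT4. Of the ATP synthase subunits, mt-Atp6 and mt-Atp8 were lower at ZT8 by -1.80 ± 0.38 and -1.87 ± 0.52 log2, and of the other complex IV subunits mt-Co2 was lower at ZT8 (-0.94) and ZT16 (-0.64).

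The ribosomal RNAs did not follow the mRNAs at every time. At ZT12 mt-Rnr1 had 222, 253 and 234 FPKM in Ctrl and 347, 395 and 372 FPKM in SD, and mt-Rnr2 had 272, 308 and 279 FPKM in Ctrl and 438, 479 and 472 FPKM in SD. Both were higher, by 0.65 ± 0.06 (limma, adjusted p = 1.25e-10) and 0.69 ± 0.06 (limma, adjusted p = 2.43e-11). At ZT24 mt-Rnr1 had 316, 290 and 297 FPKM in Ctrl and 393, 391 and 374 FPKM in SD, higher by 0.36 ± 0.06 (limma, adjusted p = 1.23e-05), at a time when none of the 13 mRNAs was called higher and mt-Co1, mt-Nd5 and mt-Nd6 were lower. At ZT20 mt-Rnr2 was higher by 0.45 ± 0.06 while mt-Rnr1 differed by -0.07 and was not called. The ribosomal share of chromosome MT reads was 4.10% in Ctrl ZT24 and 5.29% in SD ZT24, and 3.79% in Ctrl ZT4 and 4.46% in SD ZT4. Its lowest group mean, 2.83%, was in Ctrl ZT8.

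The transfer RNA mt-Te, whose gene lies directly beside mt-Nd6 (chrMT:13552-14070) on the − strand, had 90.8, 56.9 and 79.9 FPKM in Ctrl ZT20 and 275, 269 and 235 FPKM in SD ZT20. SD ZT20 thus reached the level of Ctrl ZT4, at 281, 241 and 283 FPKM, with overlap between those groups. The ZT20 difference was 1.78 ± 0.18 (limma, adjusted p = 1.87e-10), the widest rise of a member at that time. The − strand transfer RNAs mt-Tc and mt-Ty differed by 1.11 and 0.998, and the + strand mt-Tl1 by 0.79, all called, while mt-Tp differed by 0.28 and was not called, so the transfer RNAs did not move together. The 1 member called lower at ZT20 was mt-Tl2, with 26.0, 11.3 and 65.6 FPKM in Ctrl and 5.40, 4.34 and 10.8 FPKM in SD. Its difference of -1.92 ± 0.60 (limma, adjusted p = 0.00601) was wider than that of mt-Te, without overlap but with a wide spread in Ctrl. At ZT16 the 5 members that were higher were all transfer RNAs, mt-Ta by 1.86, mt-Tl1 by 1.16, mt-Ty by 0.89, mt-Tw by 0.83 and mt-Te by 0.48. The difference of mt-Ta lay near the floor, with 1.03, 0 and 0.52 FPKM in Ctrl ZT16 and 4.89, 4.41 and 3.67 FPKM in SD ZT16. The 5 lower ones were mt-Co1 (-0.39), mt-Co2 (-0.64), mt-Nd4l (-1.06), mt-Nd6 (-0.20) and mt-Rnr1 (-0.15). Of the higher ones mt-Tw and mt-Te, and of the lower ones mt-Nd4l and mt-Nd6, overlapped between the conditions.

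**Figure D4:**
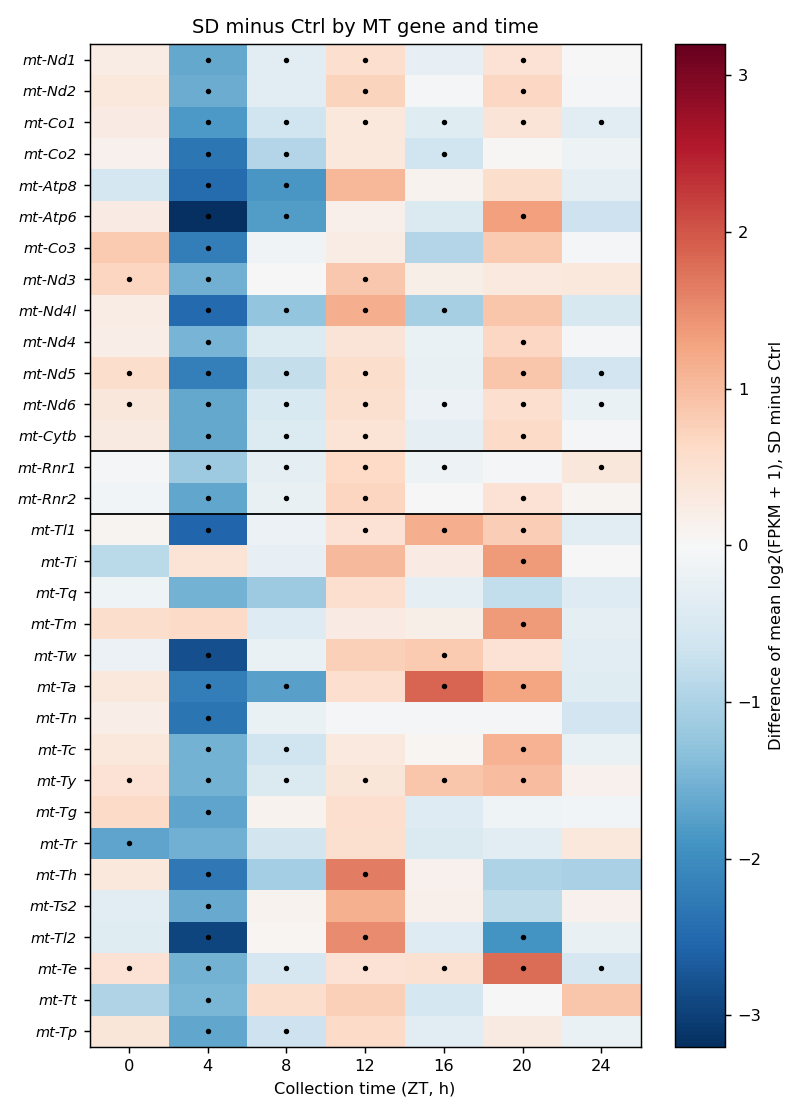
Difference of mean log2(FPKM + 1), SD minus Ctrl, for the 32 tested members (vertical, in genome order within mRNAs, ribosomal RNAs and transfer RNAs) at each collection time; blue is lower in SD, red is higher, and a dot marks a Benjamini-Hochberg adjusted p under 0.05 in limma. The ZT4 column holds 28 dots, all on lower values.

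The ZT20 result depended on the Ctrl library that stood apart. With all libraries, 8 of 13 mRNAs were called higher, and scaling by total reads, which moved the median of all tested genes by -0.16, left their median at 0.45. Without it, 13 members were higher and 4 lower (58.6% of all tested genes called, 31.5% higher and 27.1% lower), with 6 of 13 protein-coding genes higher in place of 8 and a median mRNA difference of 0.20 in place of 0.61. The differences were then 0.16 for mt-Co1, 0.20 for mt-Cytb and 0.19 for mt-Nd1, all still called by limma, while mt-Nd2 (0.15, adjusted p = 0.0759) and mt-Nd4 (0.00, adjusted p = 0.970) were not. The genes mt-Nd5 and mt-Nd6 kept 0.50 and 0.47 log2, and mt-Te kept 1.59. The sign turned for mt-Tp, to -0.47 with a call, for mt-Nd3, to -0.04, and for mt-Co2, to -0.18. Leaving out this library narrowed the common spread (the SE of mt-Co1 was 0.06 in place of 0.11), and counts at other times moved too, to 12 higher and 1 lower at ZT0 (39.1% called, 18.7% higher) and to 5 higher and 10 lower at ZT16 (57% called, 29.5% higher and 27.5% lower).

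Averaged over the 7 times, 14 of the 32 members were lower in SD and 1, mt-Ty at 0.13, was higher (69.9% of all tested genes called, 35.3% lower and 34.6% higher). The 14 included 9 of 13 protein-coding genes, with mt-Co1 at -0.32 ± 0.04 (limma, adjusted p = 3.16e-08), mt-Co2 at -0.50 ± 0.06 (limma, adjusted p = 1.48e-08) and mt-Atp6 at -0.63, and both ribosomal RNAs at -0.11. Without Ctrl ZT20 replicate 2, 19 were lower, 11 of them protein-coding (70.6% of all tested genes called, 35.9% lower and 34.8% higher). The average rested on ZT4. Without that time, an alternative chosen after seeing the data, 9 members were higher and 1, mt-Co2 at -0.20, was lower (70.1% called, 35.2% higher and 34.9% lower). With the 14 group means as units, 0 of the 32 passed (lowest adjusted p = 0.118 in limma, 1 with an unadjusted p under 0.05), where 16.9% of all tested genes did.

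The difference between the conditions varied with time for 27 of the 32 members in limma's interaction test (81.7% of all tested genes called), which were all 13 protein-coding genes, both ribosomal RNAs and 12 of 17 transfer RNAs. This share was close to that of all genes. Without ZT4 the count was 20 (77.4% called).

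A 24 h cosine was fitted over the 21 libraries of each condition. In Ctrl it passed for 23 of the 32 members (57.6% of all tested genes called), with 12 of 13 protein-coding genes, both ribosomal RNAs and 9 transfer RNAs. The median amplitude of the 13 mRNAs was 0.69 log2, against 0.14 for all tested genes, and their fitted peaks lay between 4.66 h and 7.54 h after lights on with a median of 6.23 h. Examples were mt-Co1 with an amplitude of 0.64 ± 0.10 and a peak at 6.35 h (limma, adjusted p = 1.30e-04), mt-Nd5 with 0.83 ± 0.11 at 6.29 h (limma, adjusted p = 9.19e-06) and mt-Atp6 with 1.52 ± 0.19 at 6.22 h (limma, adjusted p = 7.67e-06). The ribosomal RNAs had fitted peaks at 4.79 h (mt-Rnr1, amplitude 0.34) and 4.405 h (mt-Rnr2, amplitude 0.54). In SD the cosine passed for 1 member, the alanine transfer RNA mt-Ta (adjusted p = 0.0401 in limma; 9.20% of all tested genes called), and the median mRNA amplitude was 0.16. Leaving out any 1 library of SD ZT4, SD ZT8 or SD ZT20, or SD ZT16 replicate 2, gave 0 in SD, and leaving out SD ZT16 replicate 3 gave 2. A one-way comparison of the 7 SD times passed for 25 members, a share near that of all tested genes (79.7% called). The test of a different rhythm in SD and Ctrl passed for 21 members (30.3% called), 12 of them protein-coding, and for 6 without ZT4 (24.9% called). With group means as units, the Ctrl cosine passed for 4 members, mt-Te, mt-Atp6, mt-Atp8 and mt-Tm (2.27% called), the SD cosine for 0 (0.0118% called), and the difference of rhythms for 0 (lowest adjusted p = 0.235 in limma, 9 with an unadjusted p under 0.05), where 0% of all tested genes passed.

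ZT24 falls at the same hour of the day as ZT0, a cycle later. In Ctrl, 4 members were lower at ZT24 and 0 higher (12.9% of all tested genes called, 5.97% lower and 6.94% higher), namely mt-Rnr2 (-0.30), mt-Tl1 (-0.68), mt-Ty (-0.65) and mt-Tw (-1.17), and 0 of the 13 mRNAs were called. Without Ctrl ZT20 replicate 2, 8 members were called (14.1% called). In SD, 16 were lower and 1, mt-Rnr1 at 0.31, was higher (38.5% called, 18.2% lower and 20.4% higher). The 16 included 8 mRNAs, with mt-Nd5 at -1.09 ± 0.16 (limma, adjusted p = 1.65e-06), mt-Nd6 at -0.72 ± 0.08 (limma, adjusted p = 8.82e-09), mt-Co1 at -0.69 ± 0.11 (limma, adjusted p = 6.20e-06), mt-Cytb at -0.54 and mt-Nd1 at -0.50. Mean mt-Co1 was 6717 ± 124 FPKM in SD ZT0 and 4162 ± 171 FPKM in SD ZT24 (SD of the libraries, n = 3 each).

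Over the 14 group means, 11 of 13 protein-coding genes and both ribosomal RNAs were highest in Ctrl ZT4, and 12 of 13 protein-coding genes were lowest in SD ZT4. The ratio of the highest to the lowest group mean was 3.61 for mt-Co1, 3.10 for mt-Cytb, 4.58 for mt-Nd5, 2.30 for mt-Rnr1, 3.19 for mt-Rnr2 and 9.69 for mt-Atp6. As a description over 14 group means, which share libraries and scaling, the Pearson correlation with the mean of the 13 mRNAs, each gene included in that mean, was 0.99 for mt-Co1 and mt-Cytb and 0.76 for mt-Nd3. It was 0.85 for mt-Rnr2 and 0.67 for mt-Rnr1, 0.94 for mt-Tp, 0.81 for mt-Te and 0.30 for mt-Ti. The 5 genes outside chromosome MT most like this mean were all nuclear copies of mitochondrial genes, Gm28661 (0.98), Gm13340 (0.97), Gm10222 (0.97), Gm10925 (0.95) and Gm28439 (0.95).

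The 7 chromosome 1 copies had means between 7.99 FPKM (Gm28438) and 76.0 FPKM (Gm28661, identical to mt-Co2 over 681 bases). The copy of mt-Co1 on chromosome 1, Gm29216, was at 53.9 FPKM and Gm13340 on chromosome 2 at 2.77 FPKM. At ZT4, 9 of 10 tested copies were lower in SD and 0 higher (20.1% and 19.2% of all tested genes), with a median of -1.91 log2. Among them, Gm28661 differed by -2.13 ± 0.18 and mt-Co2 itself by -2.31, and Gm13340 by -2.10 ± 0.21 where mt-Co1 differed by -1.85. The copy of mt-Co3, Gm28437, differed by -0.98 and did not pass (adjusted p = 0.122 in limma). Between mt-Co3 and Gm28437, which are identical over 783 bases, libraries of the same group varied widely, mt-Co3 having 279, 82.3 and 49.4 FPKM in SD ZT8. Reads of a gene and an identical copy cannot be told apart, so values of these pairs are uncertain one by one.

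Nuclear genes of mitochondria, read from lists, differed far less at ZT4. Of 11 genes of mitochondrial transcription, 0 were called (median -0.06), with the RNA polymerase Polrmt at 0.12 and the packaging factor Tfam at -0.09, and of 13 genes of mitochondrial RNA processing, 0 were called (median 0.02). Of the subunits encoded in the nucleus, 16 of 36 for complex I, 7 of 9 for complex III, 5 of 10 for complex IV and 11 of 15 for ATP synthase were lower and 0 higher, where 20.1% of all tested genes were lower and 19.2% higher. Their medians were -0.19, -0.26, -0.23 and -0.18 log2, against -1.85 for the 13 mRNAs. Among the lower ones were Uqcrq of complex III at -0.45 ± 0.11 (limma, adjusted p = 0.0017) and Cox7b of complex IV at -0.45 ± 0.07. The direction was not the same at every time. At ZT24, 22 of 36 were higher and 0 lower for complex I, and 4 and 1 of 9 for complex III. For complex IV these were 8 and 0 of 10, and for ATP synthase 7 and 2 of 15. Of all tested genes 24.4% were then higher and 22.3% lower, and of the 13 mRNAs 0 were higher and 3 lower.

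Averaged over the times, 34.6% of all tested genes were higher and 35.3% lower, and the counts of the lists are to be read against these shares. Of the 11 transcription genes, 4 were higher and 4 lower, led by Tfb2m (an initiation factor, 0.17) and Mrpl12 (-0.11). Of 8 genes of mitochondrial DNA replication, 2 were higher and 2 lower, led by the polymerase Polg (0.21) and Primpol (-0.11). For RNA processing 6 of 13 were higher and 3 lower, led by the poly(A) polymerase Mtpap (0.16) and Fastkd2 (-0.17). For RNA stability and decay 2 of 6 were higher and 4 lower, with Grsf1 at 0.08 and Rexo2 and the mRNA-stabilising Lrpprc at -0.11. For ribosomal RNA maturation 4 of 8 were higher and 0 lower, led by Ybey (0.23). Of 20 genes that charge transfer RNAs, 3 were higher and 7 lower, led by the histidyl-tRNA synthetase Hars2 (0.18) and Qrsl1 (-0.31), and of 6 tested regulators of mitochondrial biogenesis, 2 were higher and 2 lower, led by Nrf1 (0.12) and Pprc1 (-0.15). Of the nuclear subunits, 5 of 36 for complex I were higher and 12 lower (Ndufv1 0.17, Ndufs8 -0.24), 0 and 3 of 9 for complex III (Uqcrq -0.12), 0 and 5 of 10 for complex IV (Cox7b -0.27), and 1 and 12 of 15 for ATP synthase (Atp5d 0.08, Atp5e -0.31). With the group means as units (16.9% of all tested genes called), 0 members passed for transcription, RNA processing, RNA stability, ribosomal RNA maturation, biogenesis, complex III and complex IV. On that scale 1 of 8 passed for replication, 1 of 20 for transfer RNA charging, 1 of 36 for complex I and 2 of 15 for ATP synthase.

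**Figure D5:**
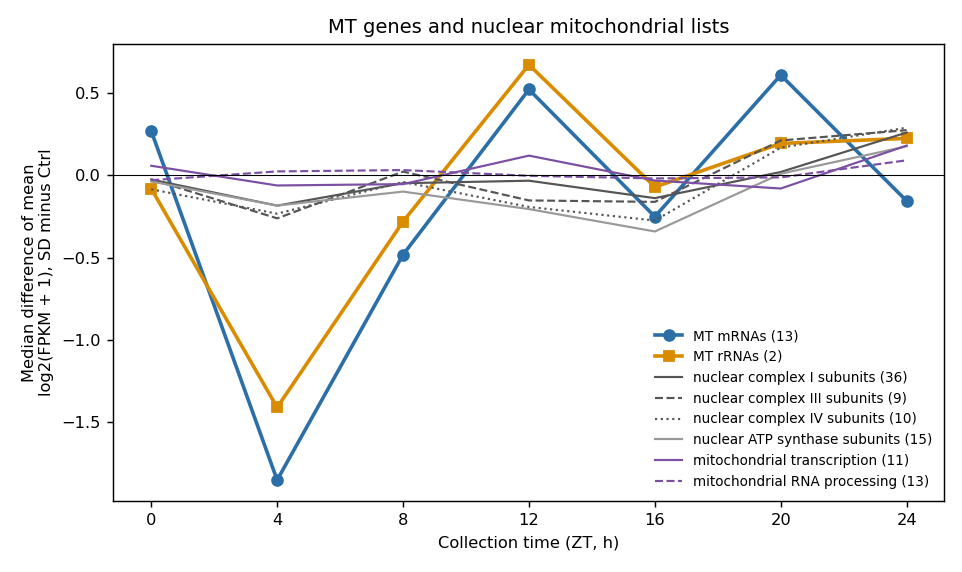
Median difference of mean log2(FPKM + 1), SD minus Ctrl, by collection time for the 13 mRNAs and 2 ribosomal RNAs of chromosome MT and for 6 lists of nuclear genes, with the number of tested genes of each in parentheses. The mRNA median reaches -1.85 at ZT4, where the nuclear lists lie between -0.26 and 0.02.

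Several lists of markers of other cell types and tissues moved with the condition at ZT4 as well, where 20.1% of all tested genes were called lower and 19.2% higher. Of 10 tested cardiac muscle markers, 9 were lower in SD and 1 higher, and the 11 listed, of which 0 were at 0, summed to 208 to 214 FPKM in the Ctrl ZT4 libraries and 132 to 140 FPKM in SD ZT4. All 11 ciliated cell markers were lower, their sum lying at 293 to 301 FPKM in Ctrl ZT4 and 193 to 200 FPKM in SD ZT4. All 6 erythroid markers were lower (sum 7248 to 7659 against 3634 to 4152 FPKM), all 7 B and plasma cell markers were lower (122 to 128 against 77.2 to 80.3 FPKM), and all 6 neutrophil markers were higher (334 to 346 against 613 to 639 FPKM). Of 7 endothelial cell markers, 5 were higher (938 to 982 against 1179 to 1224 FPKM), and of 3 tested brown adipose markers, 2 were lower (27.7 to 33.4 against 15.1 to 19.8 FPKM). Other lists went both ways. Higher and lower were 3 and 3 of 9 alveolar type 2 cell markers and 1 and 2 of 7 T cell markers. For club cells they were 1 and 2 of 5, and for skeletal muscle 1 and 1 of 4 tested. Of 3 tested RNAs without a poly(A) tail and 2 tested genes of cytosolic ribosomal RNA carry-over, 0 were called at ZT4. At ZT16, 2 of the 3 (median -0.93) and 2 of the 2 (median -1.36) were lower in SD, where 27.1% of all tested genes were lower. At ZT8, 1 of the 3 was lower (28.9%), and at ZT12, 1 of the 2 was higher (24.4%). At ZT20 and ZT24, 1 gene of each list was higher (33% and 24.4%). The part of RNA selection in the differences between RNA classes was not tested. Over the groups the cardiac sum was highest in Ctrl ZT8, at 318 FPKM, and next in SD ZT8, at 273 FPKM. The share of reads on chromosome MT was 3.91% and 2.53% in these groups, and 4.86% in Ctrl ZT4 and 1.49% in SD ZT4. The ciliated sum was 296 FPKM in Ctrl ZT4, 356 in Ctrl ZT8 and 304 in Ctrl ZT12. The part of these cells in the mitochondrial differences was not tested.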

How the data were processed

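Lung RNA of 42 mouse libraries was analysed from 1 deposited table. The authors' values are FPKM per gene, and the deposited table also gives each gene's length. The submitters' processing notes name HISAT2 2.0.5, featureCounts 1.5.0-p3 and mm10. Dividing FPKM by the smallest step gave whole reads for 99.98% to 100% of values (tolerance 0.1), with totals of 25285525 to 29790252 reads per library, and the FPKM carried median-of-ratios scaling. Differences were tested with limma 3.58.1 in R 4.3.3 (lmFit, eBayes with trend) on log2(FPKM + 1). The 16962 genes tested averaged at least 0.5 FPKM and held 99.6% of reads. Adding 1 to FPKM before the log understates changes of low genes. A call is a Benjamini-Hochberg adjusted p under 0.05 over all tested genes. Contrasts were taken in 1 fit of 14 group means. Rhythms were F tests of a 24 h cosine and sine. On simulated data for the averaged SD minus Ctrl comparison, the procedure recovered 39 of 50 genes changed 1.25-fold and 50 of 50 changed 2-fold. It also called 11 unchanged genes, and the median estimate for the 2-fold changes was 0.87 log2. The changed genes all had a mean above 50 reads, so recovery of low members and at single times was not tested. Nuclear copies were found with blastn 2.17.0 in GENCODE M21 transcripts (at least 80% identity over 50 bases). Alternatives were another pseudocount, no filter, other scalings, a replicate block, limma voom on the recovered reads, and omitted libraries or times. By rule, every tested member is named and untested transfer RNAs are counted (these 5 were named after their values were seen), and of each nuclear list the members with the widest rise and fall among those called in the averaged comparison, with a few added after their values were seen (Polrmt, Tfam, Lrpprc, and copies paired with their genes). The members and lists were chosen with earlier results of these data known.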

Additional observations from a re-analysis of the deposited data

Results flagged for a closer look

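The SD minus Ctrl difference varied between times, by limma's interaction test adjusted over all tested genes, for 27 of the 32 members. The adjusted p of the complex I mRNAs was 2.89e-17 for mt-Nd6, 5.38e-13 for mt-Nd5, 1.91e-12 for mt-Nd1, 1.27e-07 for mt-Nd2, 1.72e-07 for mt-Nd3, 4.45e-06 for mt-Nd4l and 4.64e-05 for mt-Nd4 in limma. For mt-Cytb of complex III it was 1.19e-09, and for mt-Co1, mt-Co2 and mt-Co3 of complex IV 7.86e-14, 8.22e-11 and 0.000431 in limma. For the ATP synthase mRNAs mt-Atp6 and mt-Atp8 it was 1.45e-07 and 0.000514 in limma. The ribosomal RNAs mt-Rnr2 and mt-Rnr1 had 6.94e-20 and 1.88e-16 in limma.

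Among transfer RNAs the limma adjusted p was 1.54e-14 for mt-Tl1, 9.72e-12 for mt-Te, 1.4e-11 for mt-Ty, 1.88e-11 for mt-Tc, 1.34e-06 for mt-Tw, 1.55e-06 for mt-Ta, 1.18e-05 for mt-Tn, 0.000136 for mt-Tp, 0.000657 for mt-Tl2, 0.0052 for mt-Th, 0.0141 for mt-Tg and 0.0363 for mt-Tt. The share of all tested genes called in this test was 81.7%. The 24 h rhythm differed between SD and Ctrl for 21 of the 32 members in limma, where 30.3% of all tested genes were called.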

How the results depend on the processing

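Of the 14 comparisons, the ZT4 difference was the steadiest, with 27 to 31 members called under the alternatives other than left-out libraries. Settings that moved a count by more than 1.5 times were as follows. Without a filter, 6 members were called at ZT16, 3 at ZT24 and 0 for the SD rhythm. The SD rhythm, with 1 member, had 0 with scaling by total reads or by reads outside chromosome MT, 2 with voom, 2 without ZT24, 0 without ZT4, 0 on group means and 25 by one-way comparison. With a replicate block it had 0, and the block changed no other count by that much; same-numbered libraries had a mean correlation of 0.0018 in their deviations (273 pairs) and 17 of 42 correlated best with their own number, so the numbers gave no pairing. On group means the averaged difference had 0, the Ctrl rhythm 4 and the difference of rhythms 0, the last having 6 without ZT4. With only the 6 libraries of a time, ZT0 had 13 and ZT24 had 8. Leaving out each library in turn gave 4 to 13 at ZT0, 5 to 15 at ZT16, 3 to 8 at ZT24, 0 to 2 for the SD rhythm and 3 to 8 for ZT24 minus ZT0 in Ctrl. The cause of these shifts was not tested.

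Signs turned on the log2 scale as follows. Scaling by total reads, then by reads outside chromosome MT, gave -0.0848 and -0.105 for mt-Nd3 at ZT8, -0.0498 and -0.0568 for mt-Rnr2 at ZT16, -0.18 and -0.18 for mt-Co2 at ZT20, -0.0065 and -0.012 for mt-Rnr2 at ZT24, and -0.013 and -0.024 for mt-Atp8 in ZT24 minus ZT0 of SD. The share of higher among all calls went with total reads from 49.5% to 33.8% averaged, 48.4% to 33.9% at ZT8, 53.8% to 29.7% at ZT20 and 52.2% to 33.6% at ZT24. Without ZT8, ZT12, ZT16 and ZT24 the averaged mt-Nd3 was -0.18. Without ZT4 the averaged difference was 0.0873 for mt-Cytb, 0.10 for mt-Nd1, 0.22 for mt-Nd2, 0.10 for mt-Nd4, 0.0857 for mt-Nd6, 0.0652 for mt-Nd5, 0.15 for mt-Rnr2, 0.0673 for mt-Rnr1 and 0.13 for mt-Co3. With 1 library left out, mt-Atp6 ranged from -0.0233 to 0.675 at ZT0, -0.13 to 0.43 at ZT12 and -0.45 to 0.49 in ZT24 minus ZT0 of Ctrl. Likewise mt-Co3 ranged from -0.83 to 0.41 at ZT8 and -0.12 to 0.00025 at ZT24, mt-Nd3 from -0.0469 to 0.0516 at ZT8 and -0.0438 to 0.514 at ZT20, mt-Nd2 from -0.118 to 0.0247 and mt-Rnr2 from -0.0566 to 0.0969 at ZT16. The range of mt-Atp8 was -0.35 to 0.45 at ZT16, -0.41 to 1.36 at ZT20 and -0.29 to 0.18 in ZT24 minus ZT0 of SD, of mt-Co2 -0.20 to 0.24 at ZT20, of mt-Nd1 -0.0468 to 0.0293 at ZT24, and of mt-Nd4l -0.0413 to 0.120 in ZT24 minus ZT0 of Ctrl. The planned edgeR test was not run, since the files hold FPKM, and voom on the recovered reads took its place.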
